A study of Mus musculus with 14 samples.

Results

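Transcripts of the cold-inducible RNA-binding proteins Cirbp and Rbm3 and of the cold shock domain proteins Ybx1, Ybx3 and Csdc2 were followed in mouse brown adipose tissue, a fat depot that burns fuel to make heat. The 5 genes were picked by symbol for their protein family, with earlier results of these data known, and all 5 were found among the 55471 genes of the count table. The 14 RNA-seq libraries came from 10-week-old males in 4 groups. Before the experiment all mice lived at 30 °C for 2 weeks, a temperature at which mice need hardly any extra heat, and the groups at 4 °C were then kept in the cold for 6 h. There were 4 libraries of AdC3KO mice at 4 °C, 4 of WT mice at 4 °C, 3 of AdC3KO mice at 30 °C and 3 of WT mice at 30 °C. AdC3KO mice lack CLSTN3B in adipocytes, other cell types of the tissue keep the gene, and the sources used here do not name the promoter behind the deletion. Nothing in the labels ties each library to its own animal, and the p-values therefore reflect variation among libraries only.

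Cirbp and Rbm3 are small proteins with an RNA recognition motif and a glycine-rich tail. In cultured mammalian cells their levels rise at mildly lowered temperature and fall at raised temperature, and both bind mRNAs and affect their stability, translation and processing. The second family carries the cold shock domain, a nucleic acid binding fold shared with the bacterial cold shock proteins. Ybx1 and Ybx3 package cytoplasmic mRNAs and control their translation, and Csdc2 (PIPPin) is a cold shock domain protein known mainly from brain.

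Cirbp (ENSMUSG00000045193) lies on the plus strand of chromosome 10 from 80165985 to 80172786 and Rbm3 (ENSMUSG00000031167) on the minus strand of chromosome X from 8138975 to 8145880. Ybx1 (ENSMUSG00000028639) lies on the minus strand of chromosome 4 from 119277981 to 119294604 and Ybx3 (ENSMUSG00000030189) on the minus strand of chromosome 6 from 131364855 to 131388476. Csdc2 (ENSMUSG00000042109) lies on the plus strand of chromosome 15 from 81936759 to 81950941 (GRCm38, all protein coding). Ybx3 shares chromosome 6 with the targeted locus Clstn3. Of the genes that overlap the bodies of these 5, Rbm3os runs antisense to Rbm3 and shares 94 exon bases with it, with 1 to 9 counts in any library. The snoRNA gene Gm22362 lies inside Ybx3 on the same strand and shares 0 exon bases with it.

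The promoters of Cirbp, Ybx3 and Ybx1 are shown because the transcripts differ in their cold response and because a short element, TCCCCGCC, was described in the Cirbp promoter as a mild-cold response element. RefSeq windows (GRCm38.p6) matched 3 of the 5 genes. Each line gives the 250 bases before the most upstream start listed, 5′ to 3′ on the gene's strand, with TCCCCGCC and the CCAAT box (CCAAT or its reverse complement ATTGG, the core of the Y-box for which the Ybx proteins are named) in capitals. The Cirbp window is chr10:80167589-80167838, the Ybx3 window chr6:131388451-131388700 and the Ybx1 window chr4:119294514-119294763.
Cirbp: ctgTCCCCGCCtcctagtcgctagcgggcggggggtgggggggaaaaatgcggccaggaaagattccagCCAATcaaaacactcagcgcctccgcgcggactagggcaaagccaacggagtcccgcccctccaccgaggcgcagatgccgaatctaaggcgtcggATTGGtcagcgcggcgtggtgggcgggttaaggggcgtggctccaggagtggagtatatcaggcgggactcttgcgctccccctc
Ybx3: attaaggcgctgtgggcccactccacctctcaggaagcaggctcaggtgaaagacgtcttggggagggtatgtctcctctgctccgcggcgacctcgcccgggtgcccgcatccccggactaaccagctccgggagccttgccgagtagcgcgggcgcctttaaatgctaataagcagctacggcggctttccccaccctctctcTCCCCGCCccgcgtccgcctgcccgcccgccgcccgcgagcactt
Ybx1: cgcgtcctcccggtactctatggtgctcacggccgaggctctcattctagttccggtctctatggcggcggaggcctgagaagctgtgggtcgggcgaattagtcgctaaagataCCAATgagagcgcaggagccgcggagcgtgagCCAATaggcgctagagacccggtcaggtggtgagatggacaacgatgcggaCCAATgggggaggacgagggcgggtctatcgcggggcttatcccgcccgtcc

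Within 300 bases (250 before and 50 after the start) TCCCCGCC was found once at Cirbp, at -247 to -240, and once at Ybx3, at -45 to -38, on the strand of the gene in both. Of 32851 windows of this length, 5.38% held it on either strand. The CCAAT box was found 2 times at Cirbp and 3 times at Ybx1, and 37.4% of windows held it. The E-box CACGTG (7.15% of windows), the cAMP response element TGACGTCA (1.79%) and the heat shock element unit GAANNTTC (7.86%) were not among the letters of the 4 windows searched, which include a second Cirbp start. These matches describe letters and do not show binding.

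Sequenced depth was 19.9 M to 29.0 M gene counts per library (M, 1e6 counts). Levels are counts per M with library sizes scaled by the trimmed mean of M-values (TMM), written CPM. Differences are log2 fold changes from the edgeR quasi-likelihood test with Benjamini-Hochberg adjusted p over 15949 tested genes, called at 0.05. The targeted locus Clstn3 followed the genotype labels, with a mean of 65.8 ± 11.9 CPM in AdC3KO libraries against 1110 ± 97.4 CPM for WT libraries at 4 °C (SD, n = 4 each), and at 30 °C 15.8 ± 1.31 CPM in AdC3KO against 207 ± 23.2 CPM for WT (SD, n = 3 each). The brown adipocyte marker and uncoupling protein Ucp1 was present in every library, at 11021 CPM or more at 4 °C and 1382 CPM or more at 30 °C. Skeletal muscle transcripts (12 of 12 markers listed in the table, none at 0 in all libraries) stood out in 5 libraries. Their summed level was 483 CPM in AdC3KO library 3 and 50.5 CPM in WT library 2 at 4 °C, and 73.2 CPM in AdC3KO library 1, 33.8 CPM in AdC3KO library 2 and 207 CPM in WT library 3 at 30 °C, against 1.28 to 3.54 CPM in the other 9.

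After 6 h in the cold Cirbp and Rbm3 had moved in opposite directions, in AdC3KO as in WT. Cirbp, which is named for its rise in cooled cells, fell 3.44-fold in AdC3KO and 2.96-fold in WT. The 4 °C is the temperature at which the mice were kept, and the temperature of the tissue itself was not examined here. Rbm3 rose 2.12-fold in AdC3KO and 1.96-fold in WT, Ybx3 rose 1.61-fold and 1.63-fold, and Ybx1, the most abundant of the 5, did not pass the test. Csdc2 was close to the limit of detection. Of the 4 genes with enough counts in every library (Cirbp, Rbm3, Ybx1 and Ybx3), 2 were called higher and 1 lower in each genotype. Csdc2 was also called higher in AdC3KO, a call that rests on few counts and on the low-count filter and ended under several of the alternatives run, and it is described apart. Among all tested genes, 31.0% were called higher and 32.1% lower in AdC3KO, and 30.6% higher and 30.8% lower in WT, and the counts of these 4 genes are not far from that background. The libraries did not overlap between temperatures for Cirbp, Rbm3 and Ybx3 in each genotype and overlapped for Ybx1. Among all tested genes they did not overlap for 64.1% in AdC3KO and 60.3% in WT. Those of Csdc2 did not overlap either, with the same limits of few counts and of the low-count filter. In whole tissue, fewer cells of a type and less RNA per cell cannot be told apart.

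**Figure D1:**
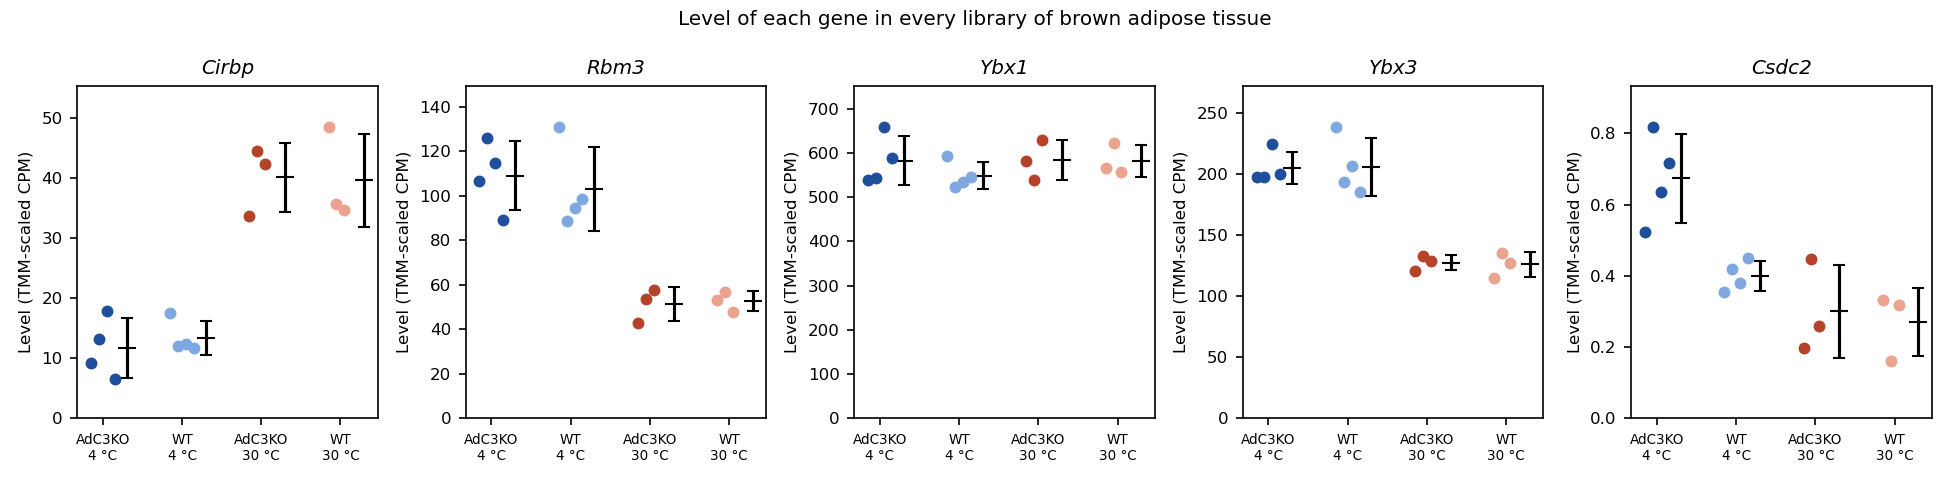
TMM-scaled CPM of each gene (vertical axis, from 0) in every library (points) of the 4 groups, with mean and SD (bars). Cirbp libraries at 4 °C sit between 6.53 and 17.9 CPM, below every 30 °C library, while Rbm3 and Ybx3 libraries at 4 °C all sit above those at 30 °C and the Ybx1 groups overlap.

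Cirbp had 9.17, 13.3, 17.9 and 6.53 CPM in the AdC3KO libraries at 4 °C, against 33.7, 44.5 and 42.3 CPM in the AdC3KO libraries at 30 °C. In WT it had 17.6, 12.0, 12.4 and 11.7 CPM at 4 °C, against 48.6, 35.6 and 34.8 CPM at 30 °C. Every cold library was lower than every warm library of either genotype, and the cold AdC3KO libraries were spread more widely than the cold WT libraries. The fall was 1.78 on the log2 scale for AdC3KO (SE 0.27, adjusted p = 6.75e-05) and 1.57 for WT (SE 0.27, adjusted p = 0.000215). By size of the change it stood at place 1483 from the lowest among 15949 genes in AdC3KO and 1786 in WT, so it was well inside the range of cold-lowered transcripts of this tissue. The call was kept under each of the alternatives run, with log2 fold changes of −2.19 to −1.57 in AdC3KO and −1.94 to −1.39 in WT.

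Rbm3, the closest relative of Cirbp among the 5, had 107, 126, 115 and 89.0 CPM in AdC3KO at 4 °C, against 42.9, 53.8 and 57.9 CPM in AdC3KO at 30 °C. In WT it had 131, 88.8, 94.4 and 98.6 CPM at 4 °C, against 53.1, 56.9 and 48.0 CPM at 30 °C. The lowest cold library was above the highest warm library in each genotype. The rise was 1.08 on the log2 scale for AdC3KO (SE 0.15, adjusted p = 9.86e-06) and 0.97 for WT (SE 0.15, adjusted p = 3.13e-05), at place 2211 and 2573 from the highest of all tested genes. Across the alternatives the change was 0.69 to 1.18 in AdC3KO and 0.61 to 1.03 in WT, always called.

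Reads of Rbm3 can be shared with 5 near-identical copies, found by aligning its longest coding transcript to all annotated transcripts (at least 200 bases at 90% identity). The 4 processed pseudogenes among them (Rbm3-ps, Gm48583, Gm10156 and Gm13624) had at most 9 counts in any library. The fifth was Phospho2, a phosphatase gene on chromosome 2 with a stretch of 380 bases that is 97.37% identical to Rbm3. Phospho2 had a mean of 36.4 ± 8.25 CPM in AdC3KO at 4 °C (SD, n = 4), against 18.2 ± 1.78 CPM in AdC3KO at 30 °C (SD, n = 3), and 38.7 ± 5.23 CPM in WT at 4 °C (SD, n = 4), against 19.1 ± 2.34 CPM in WT at 30 °C (SD, n = 3). It rose 2.01-fold in AdC3KO (SE 0.16 on the log2 scale, adjusted p = 4.9e-05) and 2.03-fold in WT (SE 0.16, adjusted p = 4.38e-05), much as Rbm3 did. How reads of the shared stretch were assigned was not tested.

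The opposite moves showed most plainly as the ratio of Rbm3 to Cirbp, with levels per length (transcripts per M, TPM, from the union of annotated exons). The ratio was 6.44, 5.27, 3.56 and 7.55 in AdC3KO at 4 °C, against 0.707, 0.670 and 0.758 in AdC3KO at 30 °C. In WT it was 4.12, 4.10, 4.21 and 4.69 at 4 °C, against 0.606, 0.885 and 0.765 at 30 °C. Cirbp was thus the more abundant of the pair per length in all 6 warm libraries, and Rbm3 in all 8 cold libraries. The order at 30 °C rests on the exon lengths used, 4698 bases for Rbm3 and 2604 for Cirbp. In CPM, without length, Rbm3 had the higher mean at 30 °C in AdC3KO (51.5 against 40.2) and WT (52.7 against 39.7). The rise of the ratio in the cold does not rest on these lengths. A ratio within a library does not depend on how the library size is scaled. No p is given for it.

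**Figure D2:**
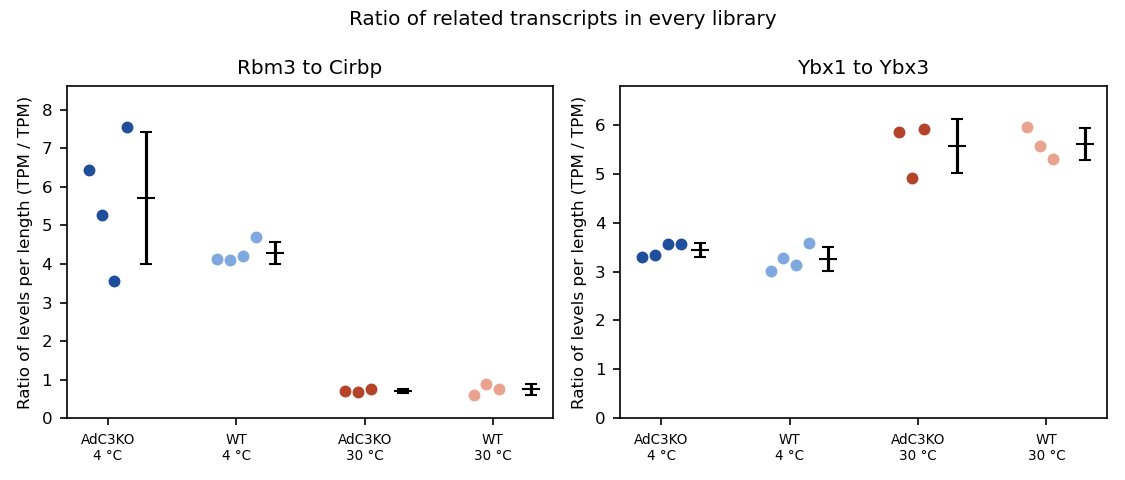
Ratio of TPM of Rbm3 to Cirbp (left) and of Ybx1 to Ybx3 (right) in every library (points), with mean and SD (bars) and vertical axes from 0. The Rbm3 to Cirbp ratio is 3.56 or more in every 4 °C library and 0.885 or less in every 30 °C library. The Ybx1 to Ybx3 ratio is at most 3.58 at 4 °C and at least 4.92 at 30 °C.

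Ybx3 (also called MSY4 or DbpA), a repressor of translation of bound mRNAs in germ cells, had 198, 198, 225 and 199.9 CPM in AdC3KO at 4 °C, against 121, 133 and 129 CPM in AdC3KO at 30 °C. In WT it had 239, 194, 207 and 185 CPM at 4 °C, against 115, 136 and 128 CPM at 30 °C. The temperatures did not overlap in either genotype. The rise was 0.68 on the log2 scale for AdC3KO (SE 0.10, adjusted p = 1.35e-05) and 0.71 for WT (SE 0.10, adjusted p = 9.85e-06). The change kept its call but was smaller with library sizes left unscaled, at 0.29 in AdC3KO and 0.35 in WT.

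Ybx1 (YB-1), a core protein of untranslated messenger ribonucleoproteins, had 539.6, 544, 659 and 588 CPM in AdC3KO at 4 °C, against 583, 539.5 and 629 CPM in AdC3KO at 30 °C. In WT it had 592, 523, 534 and 546 CPM at 4 °C, against 566, 623 and 557 CPM at 30 °C. The temperatures overlapped in both genotypes. On the log2 scale the difference was −0.00 for AdC3KO (95% interval −0.20 to 0.20, adjusted p = 0.984) and −0.08 for WT (−0.29 to 0.12, adjusted p = 0.462). This result depended on the scaling. With upper-quartile scaling Ybx1 was called lower in the cold in AdC3KO (−0.24, adjusted p = 0.0371) and in WT (−0.33, adjusted p = 0.0063), and likewise with unscaled library sizes (−0.39, adjusted p = 0.000149 in AdC3KO, and −0.44, adjusted p = 5.66e-05 in WT). The same scalings moved the median of all tested genes to −0.29 and −0.45 in AdC3KO, from −0.06 with TMM, and to −0.27 and −0.38 in WT, from −0.03, so Ybx1 stayed close to the median gene under each of them. TMM factors were 0.822 to 0.954 in the 8 cold libraries and 1.107 to 1.213 in the 6 warm ones. The 5 pseudogenes that match Ybx1 held 0.09% of its counts.

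The balance between Ybx1 and Ybx3 shifted toward Ybx3 in the cold. The TPM ratio of Ybx1 to Ybx3 was 3.31, 3.34, 3.56 and 3.57 in AdC3KO at 4 °C, against 5.86, 4.92 and 5.91 in AdC3KO at 30 °C. It was 3.01, 3.28, 3.13 and 3.58 in WT at 4 °C, against 5.96, 5.57 and 5.30 in WT at 30 °C. Ybx1 remained the most abundant of the 5 per length in every group, at 70.8% of their summed TPM in AdC3KO and 69.8% in WT at 4 °C, and 77.2% in AdC3KO and 77.3% in WT at 30 °C.

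Csdc2 was detected in every library by 4 to 19 reads. It had 14, 19, 13 and 17 counts in AdC3KO at 4 °C, 6, 8, 8 and 11 in WT at 4 °C, 6, 12 and 7 in AdC3KO at 30 °C, and 8, 4 and 9 in WT at 30 °C. These are 0.522 to 0.818 CPM in AdC3KO at 4 °C and 0.160 to 0.448 CPM in the other groups, and the temperatures did not overlap in either genotype. The gene passed the low-count filter mainly through AdC3KO at 4 °C, where all 4 libraries reached the minimum, against 1 in WT at 4 °C, 1 in AdC3KO at 30 °C and 0 in WT at 30 °C, so a difference of that group was favoured by the filter. It was called higher at 4 °C than at 30 °C in AdC3KO (1.16 on the log2 scale, SE 0.41, adjusted p = 0.0219), and for WT the difference was 0.57 (95% interval −0.36 to 1.49, adjusted p = 0.275). The call ended without AdC3KO library 1 (0.92, adjusted p = 0.105) or 3 (1.07, adjusted p = 0.0773) at 30 °C or AdC3KO library 2 at 4 °C (1.06, adjusted p = 0.0501), and its adjusted p was 0.014 to 0.193 over all alternatives.

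**Figure D3:**
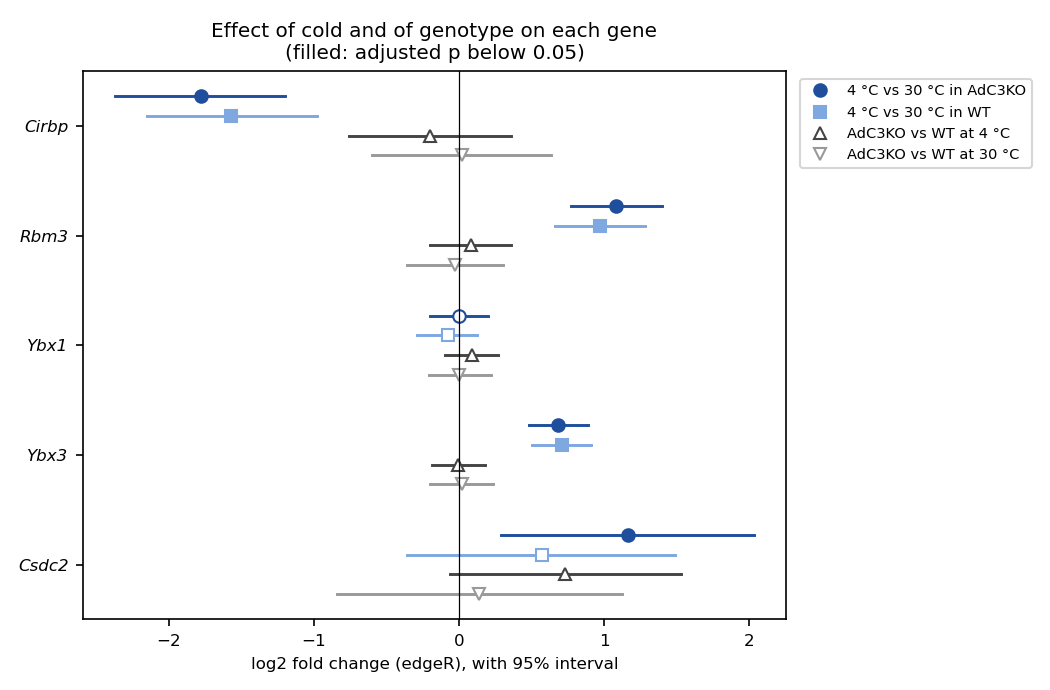
Log2 fold change (horizontal axis) of each gene with its 95% interval (lines) for cold in AdC3KO, cold in WT, genotype at 4 °C and genotype at 30 °C, with filled symbols for an adjusted p below 0.05. Cirbp lies left of 0 and Rbm3 and Ybx3 right of 0 for cold in both genotypes, and every genotype interval includes 0.

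Deletion of CLSTN3B in adipocytes was not followed by a called difference in any of the 5 genes at either temperature. At 4 °C the background was 0.0502% of tested genes called. Cirbp had a mean of 11.7 ± 4.96 CPM in AdC3KO against 13.4 ± 2.81 CPM in WT (log2 fold change −0.20, 95% interval −0.76 to 0.36), and Rbm3 109 ± 15.7 CPM in AdC3KO against 103 ± 19.0 CPM in WT (0.08, −0.20 to 0.36). Ybx1 stood at 583 ± 55.4 CPM in AdC3KO against 549 ± 30.7 CPM in WT (0.09, −0.10 to 0.27), and Ybx3 205 ± 13.2 CPM in AdC3KO against 206 ± 23.6 CPM in WT (−0.01, −0.19 to 0.18; SD, n = 4 each). Adjusted p was 0.968 to 0.999 for Cirbp, Rbm3, Ybx1 and Ybx3. For Rbm3, Ybx1 and Ybx3 the intervals exclude a change as large as the 0.68 of Ybx3 in the cold, while that of Cirbp reaches past it.

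Csdc2 at 4 °C stood at 0.673 ± 0.125 CPM for AdC3KO libraries, against 0.400 ± 0.0419 CPM for WT libraries (SD, n = 4 each). Its libraries did not overlap between the genotypes, as for 2.27% of all tested genes, and the test did not call it (log2 fold change 0.73, SE 0.38, adjusted p = 0.963). This separation rests on 13 to 19 counts in AdC3KO against 6 to 11 in WT. It was favoured by the low-count filter, which Csdc2 passed mainly through AdC3KO at 4 °C.

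At 30 °C, where 0.0439% of tested genes were called, Cirbp had a mean of 40.2 ± 5.71 CPM in AdC3KO against 39.7 ± 7.73 CPM in WT (log2 fold change 0.02, 95% interval −0.60 to 0.63). Rbm3 stood at 51.5 ± 7.72 CPM in AdC3KO against 52.7 ± 4.49 CPM in WT (−0.03, −0.36 to 0.30). Ybx1 stood at 584 ± 44.5 CPM in AdC3KO against 582 ± 35.8 CPM in WT (0.00, −0.21 to 0.22). Ybx3 stood at 128 ± 6.29 CPM in AdC3KO against 126 ± 10.3 CPM in WT (0.02, −0.20 to 0.23; SD, n = 3 each). Csdc2 was at 0.14 (−0.84 to 1.12). The genotypes overlapped for all 5 genes, and every adjusted p was 1. Among all tested genes 7.29% did not overlap, so the 5 genes are not far from that background.

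The interaction, the cold response in AdC3KO less the one in WT, was −0.22 for Cirbp (95% interval −1.05 to 0.61), 0.11 for Rbm3 (−0.32 to 0.55), 0.08 for Ybx1 (−0.20 to 0.37), −0.02 for Ybx3 (−0.31 to 0.26) and 0.59 for Csdc2 (−0.68 to 1.86), on the log2 scale. None passed, and neither did any of the 15949 genes with edgeR (0%) or with DESeq2, with 349 at an unadjusted p below 0.05 in edgeR. In the order of group means, Cirbp was lowest in AdC3KO and then WT at 4 °C, followed by WT and AdC3KO at 30 °C. The genotypes overlapped at each temperature and the temperatures did not. Rbm3 and Ybx3 had the reverse order of temperatures, again with overlapping genotypes, and for Ybx1 all neighbouring groups overlapped.

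Per length, Ybx1 had a mean of 490 ± 28.6 TPM in AdC3KO and 492 ± 17.2 TPM in WT at 4 °C (SD, n = 4 each), and 618 ± 23.8 TPM in AdC3KO and 627 ± 34.0 TPM in WT at 30 °C (SD, n = 3 each). Over the 14 libraries its mean TPM was the 158th highest of 15937 tested genes with a length, followed by Ybx3 at place 664, Rbm3 at 2090, Cirbp at 3345 and Csdc2 at 15373. Per length, then, Ybx1 and Ybx3 exceeded the cold-inducible pair in this tissue. The TPM scale carries no TMM factor, and on it the Ybx1 libraries did not overlap between temperatures.

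Set beside these 5 were the cold shock domain genes Ybx2, Carhsp1, Lin28a and Lin28b. The first of them, Ybx2, the germ cell Y-box protein that also has a described role in brown fat, had a mean of 28.6 ± 3.85 CPM in AdC3KO at 4 °C (SD, n = 4) against 98.4 ± 2.21 CPM in AdC3KO at 30 °C (SD, n = 3). In WT it stood at 23.9 ± 0.812 CPM at 4 °C (SD, n = 4) against 95.2 ± 3.95 CPM at 30 °C (SD, n = 3). It fell in both genotypes (log2 change −1.78, SE 0.09, adjusted p = 2.56e-10 in AdC3KO, and −1.99, SE 0.09, adjusted p = 1.17e-10 in WT), opposite to its relative Ybx3. Carhsp1, an mRNA-stabilising relative of Csdc2, fell (−0.80 in AdC3KO and −0.75 in WT, adjusted p = 9.66e-06 and 2e-05). Lin28a and Lin28b were not tested for lack of counts, and Lin28b had 0 counts in all 14 libraries. Ybx2 and Carhsp1 were called lower in each genotype under all 4 scalings.

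Wider sets of RNA-binding proteins moved upward on balance. Of 28 genes of hnRNP and other RNA-binding proteins, 20 rose and 1 fell in each genotype. Not all of the 28 carry the RNA recognition motif of Cirbp and Rbm3. Their median log2 fold change was 0.60 in AdC3KO and 0.61 in WT, beside −0.06 and −0.03 for all tested genes. Among all tested genes 31.0% were called higher and 32.1% lower in AdC3KO, and 30.6% higher and 30.8% lower in WT. The largest called changes in WT were those of Hnrnph2 (1.51 in AdC3KO, 1.52 in WT), Hnrnpf (1.13 and 1.20), Pcbp1 (1.15 and 1.09) and Ptbp2 (1.17 and 1.03), regulators of splicing and mRNA stability (adjusted p at most 2.53e-07). With unscaled library sizes the counts were 14 higher and 6 lower in AdC3KO, and 15 higher and 5 lower in WT. Over all 15949 tested genes the unscaled counts were 2985 higher and 7396 lower in AdC3KO, and 3098 higher and 7023 lower in WT. The median of the list then was 0.21 in AdC3KO and 0.26 in WT, beside −0.45 and −0.38 for all tested genes. Of 24 stress granule and messenger ribonucleoprotein genes, 17 rose in AdC3KO and 18 in WT, and 1 fell in each, with medians of 0.66 and 0.70, beside the same shares and medians of all tested genes. Unscaled, 12 were higher and 3 lower in AdC3KO, and 13 higher and 4 lower in WT. G3bp2, a nucleator of stress granules, had 2.40 in AdC3KO and 2.16 in WT, the RNA helicase Ddx3x 1.87 and 1.85, the mRNA-stabilising protein Elavl1 (HuR) 1.56 and 1.64, and Igf2bp2 1.77 and 1.62, all called (adjusted p at most 2.87e-06).

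**Figure D4:**
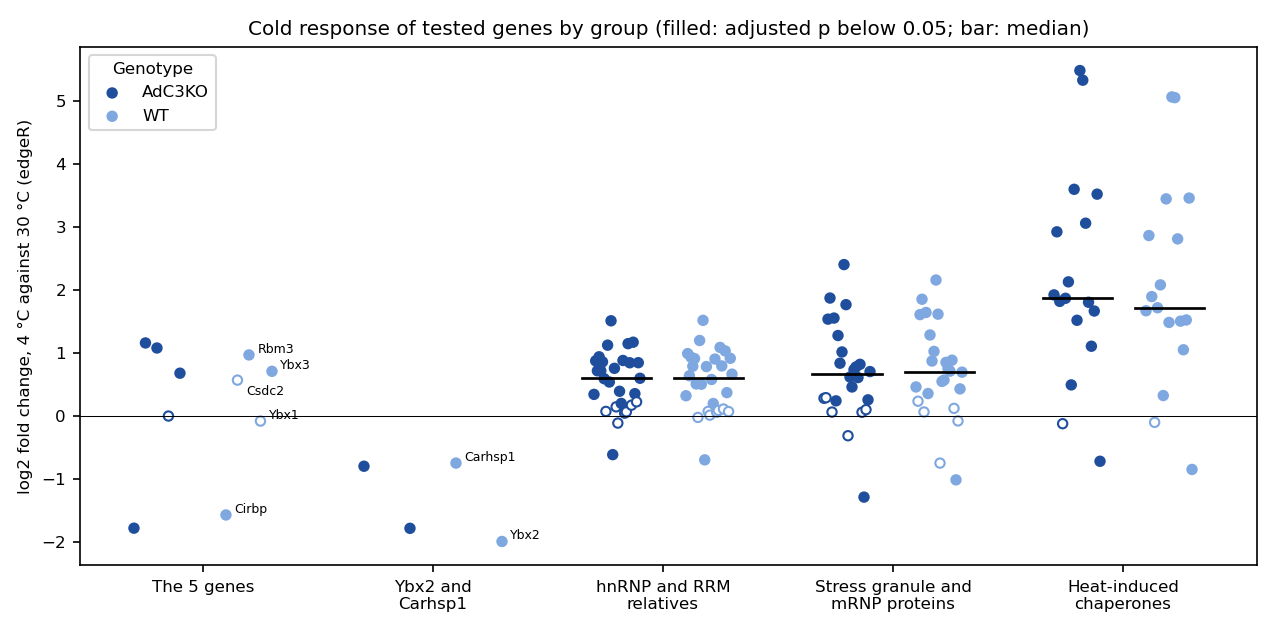
Log2 fold change of 4 °C against 30 °C (vertical axis) for the 5 genes, for Ybx2 and Carhsp1, and for the tested genes of 3 lists, AdC3KO left of WT, filled where the adjusted p is below 0.05, with the median of each of the 3 lists as a bar. Cirbp lies below the tested hnRNP and stress granule genes in both genotypes, Rbm3 lies in the upper part of the hnRNP range, and heat-induced chaperones reach above 5.

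Transcripts that heat is known to induce also rose in the cold. Of 17 genes listed, heat-induced chaperones with their cofactors and the heat shock transcription factor, 15 rose and 1 fell in each genotype. Their medians were 1.87 in AdC3KO and 1.72 in WT. Over all tested genes 31.0% were called higher in AdC3KO and 30.6% in WT, 32.1% and 30.8% lower, and the medians were −0.06 and −0.03. The inducible Hsp70 genes Hspa1a (5.48 in AdC3KO, 5.06 in WT) and Hspa1b (5.33 and 5.05) are near-identical copies that can share reads. Hsph1 had 3.52 and 3.46, and Hsp90aa1 3.60 and 3.45, all with adjusted p of at most 3.59e-06. Core clock and clock output genes were called in all 19 cases, 10 higher and 9 lower in each genotype, against that same background. Arntl was at 3.85 in AdC3KO and 3.83 in WT, and Per3 at −4.03 and −3.53. Of the output genes, Nfil3 was at 3.32 and 3.24 and Dbp at −3.44 and −3.18 (adjusted p at most 1.44e-08 for each of these genes). Cirbp is itself rhythmic in mouse tissues with body temperature, and the labels give no hour of tissue sampling. The part of the clock genes in the change of Cirbp was not tested. As a check of the stimulus, Ucp1, Dio2, Ppargc1a and Elovl3 rose in both genotypes, with Dio2 at 7.72 in AdC3KO and 7.82 in WT. Cidea, the fifth gene of that list, fell in WT (−0.38, adjusted p = 0.0264) and was at −0.32 in AdC3KO (adjusted p = 0.0567).

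Transcripts reported in other systems as bound by Cirbp or Rbm3 did not move in a common direction. Clock, bound by Cirbp in mouse fibroblasts, rose by 1.55 in AdC3KO and 1.85 in WT (adjusted p = 1.74e-08 and 3.26e-09). Rpa2 and Txn1, bound by CIRBP in human cells, fell, Rpa2 by 2.28 in AdC3KO and 2.22 in WT (adjusted p = 5.12e-07 and 7.72e-07) and Txn1 by 0.54 and 0.45 (adjusted p = 0.00166 and 0.00616). Rtn3, whose translation RBM3 raises in mouse neurons, was at 0.07 in AdC3KO and 0.14 in WT and turned to −0.32 and −0.22 with unscaled library sizes, called lower there. Atr was at −0.20 in AdC3KO and −0.09 in WT (adjusted p = 0.337 and 0.675), and was called lower in both with unscaled library sizes. Hnrnph1, which controls splicing of a poison exon of RBM3 in human cells, rose by 0.54 in AdC3KO and 0.50 in WT (adjusted p = 9.58e-05 and 0.000189), a call lost with unscaled library sizes (0.15 in both). With unscaled sizes 1 of these 6 transcripts was called higher and 4 lower in each genotype. Over all 15949 tested genes the unscaled calls were 2985 higher and 7396 lower in AdC3KO, and 3098 and 7023 in WT. Counts per gene do not separate isoforms, so the splicing of Rbm3 and the retained-intron forms of Cirbp were not analysed here. Of the list and check genes named here, Clstn3 alone was called between the genotypes.

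**Figure D5:**
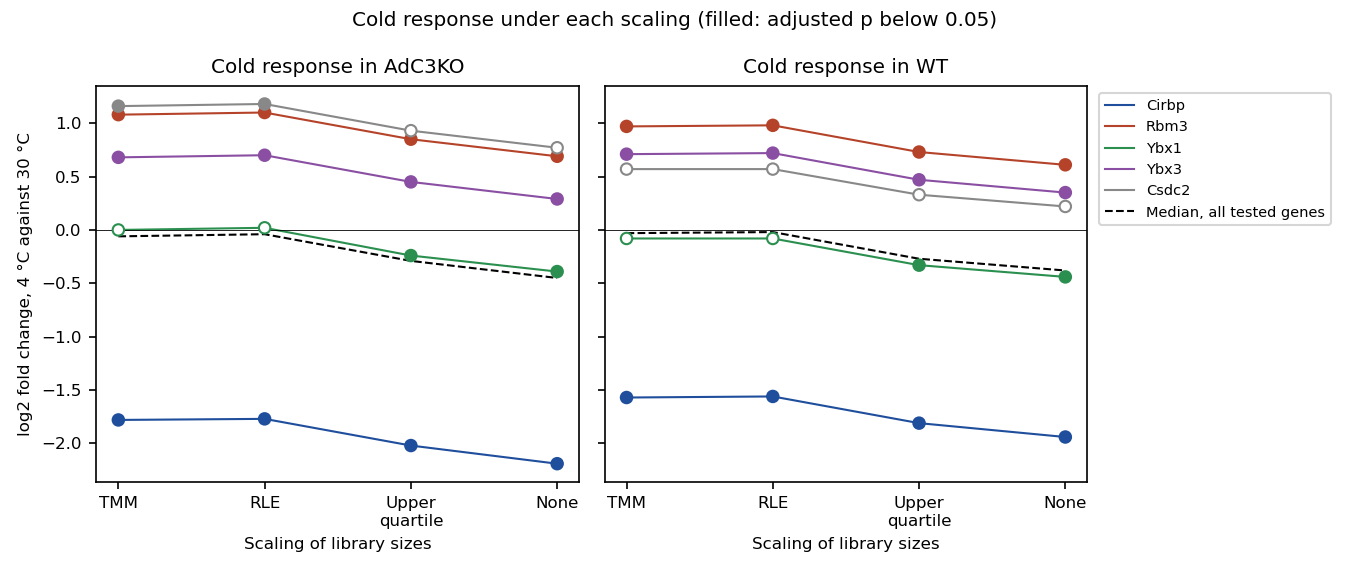
Log2 fold change of 4 °C against 30 °C (vertical axis) of each gene under 4 scalings of library size (horizontal axis), in AdC3KO (left) and WT (right), filled where the adjusted p is below 0.05, with the median of all tested genes as a dashed line. All lines shift down together from TMM to unscaled sizes. Cirbp, Rbm3 and Ybx3 keep sign and call, Csdc2 keeps its sign but not its call in AdC3KO, and Ybx1 lies beside the median gene.

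Genes with the most similar course over the 14 libraries were ranked by the root mean square difference of log2(CPM + 0.5) profiles, each centred on its own mean, among 9309 protein-coding genes of at least 5 CPM. The nearest to Cirbp were Trub1 (0.259), Tatdn3 (0.265) and Crtap (0.268), and the nearest to Rbm3 were Sept7 (0.122), H3f3b (0.125) and Tmem161b (0.129). Ybx1 was nearest to Yif1a (0.061), Clpb (0.063) and Gatb (0.063), and Ybx3 to Tmed2 (0.063), Dnaja3 (0.063) and Eef1a1 (0.068). For Csdc2 the added 0.5 flattens the profile, and its nearest genes were Casd1 (0.138), Polr3b (0.146) and Minpp1 (0.148).

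Summed markers of several other cell types also stood apart between temperatures, without a test of their sums. A sum is weighted toward the most abundant markers of a list. Endothelial markers (8 of 8 listed in the table) summed to 1132 to 1321 CPM in AdC3KO and 1057 to 1120 CPM in WT at 4 °C, and to 704 to 787 CPM in AdC3KO and 677 to 903 CPM in WT at 30 °C. Their mean log2 CPM, which is less weighted toward abundant markers, overlapped between temperatures in both genotypes. It was 5.87 to 6.2 at 4 °C against 5.91 to 6.06 at 30 °C in AdC3KO. In WT it was 5.91 to 6.16 at 4 °C against 5.92 to 6.25 at 30 °C. Smooth muscle and pericyte markers (10 of 10) summed to 558 to 672 CPM in AdC3KO and 537 to 636 CPM in WT at 4 °C, and to 762 to 827 CPM in AdC3KO and 760 to 869 CPM in WT at 30 °C. Their mean log2 CPM was also lower at 4 °C, at 3.94 to 4.49 against 4.53 to 4.77 in AdC3KO. In WT it was 3.98 to 4.34 at 4 °C against 4.63 to 4.85 at 30 °C. White adipocyte markers (5 of 5) summed to 1083 to 1254 CPM in AdC3KO and 818 to 1364 CPM in WT at 4 °C, and to 319 to 432 CPM in AdC3KO and 254 to 463 CPM in WT at 30 °C. Unlike the sum, their mean log2 CPM was lower at 4 °C in AdC3KO, at 3.99 to 4.61 against 4.95 to 5.56. In WT it overlapped, at 4.65 to 5.2 at 4 °C against 5.01 to 5.45 at 30 °C. Red blood cell markers (5 of 5) summed to 496 to 622 CPM in AdC3KO and 326 to 599 CPM in WT at 4 °C, and to 245 to 385 CPM in AdC3KO and 276 to 358 CPM in WT at 30 °C. The temperatures overlapped for them in WT and did not in AdC3KO. Macrophage markers (8 of 8) summed to 211 to 375 CPM in AdC3KO and 267 to 561 CPM in WT at 4 °C, and to 161 to 242 CPM in AdC3KO and 162 to 197 CPM in WT at 30 °C. Schwann cell markers (6 of 6) summed to 73.3 to 103 CPM in AdC3KO and 68.4 to 96.1 CPM in WT at 4 °C, and to 92.8 to 126 CPM in AdC3KO and 114 to 142 CPM in WT at 30 °C. The sums of both of these lists overlapped between temperatures in AdC3KO and not in WT. By mean log2 CPM, Schwann cell markers did not overlap in AdC3KO either, at 1.85 to 2.38 at 4 °C against 2.49 to 2.88 at 30 °C. For red blood cell and macrophage markers the mean log2 CPM overlapped in the same genotype as the sums. Fibroblast markers (6 of 6) overlapped in both genotypes, at 779 to 1110 CPM in AdC3KO and 924 to 1172 CPM in WT at 4 °C, and 703 to 1189 CPM in AdC3KO and 866 to 1172 CPM in WT at 30 °C. No marker of these 7 lists was at 0 in all libraries. Their part in the cold differences of the 5 genes was not tested. Without the 5 libraries with muscle transcripts, which leaves 1 AdC3KO library at 30 °C that is assumed to vary like the other groups, Cirbp, Rbm3 and Ybx3 kept their calls in both genotypes.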

How the data were processed

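The authors deposited raw read counts, whole numbers for 55471 Ensembl genes in 14 libraries. Per the series' design text their steps were Trimmomatic for trimming, FastQC for quality, STAR for alignment (GRCm38/mm10), HTSeq for counting and DESeq2 for tests; per the labels' protocols, an NEBNext Ultra II RNA kit made the libraries. The sources used here give no versions, annotation release or strand setting. Reads outside genes (5.95% to 8.19% of a library) and reads on more than 1 gene (5.53% to 6.03%) were left out of library sizes.

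Symbols, positions and exon lengths came from GENCODE M21 (GRCm38), which matched 99.57% of identifiers. Counts were filtered with filterByExpr by group (minimum count 10), scaled by TMM and tested with edgeR 4.0.16 in R 4.3.3, all 14 libraries in 1 fit of the 4 group means with robust spread; SE is the log2 fold change over the root of F. Steps were tested on simulated data. The protocol names no molecular identifiers. Chi-square over degrees of freedom was 16.9 to 83.5 for library pairs within a group, so each counts once. Alternatives were DESeq2 1.42.0, other scalings and filters, only the groups compared, a replicate block, each library left out, and libraries high in muscle or interferon transcripts left out. The 5 genes, the lists and the naming rule (all 5 genes; up to 4 called genes per list with at least 5 CPM, by size of change in WT; 3 most similar profiles; overlapping genes and copies) were chosen with earlier results of these data known. A gene of the cold shock domain list is not reported here.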

Additional observations from a re-analysis of the deposited data

Results flagged for a closer look

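In each group of 4 libraries the highest and lowest library of every gene was compared with its nearest neighbour, as a share of the group's range against Dixon's critical value of 0.829. Of 10 such groups 2 held a library that stood apart, and chance flags about 1 in 20. Cirbp was high in WT library 1 at 4 °C, at 17.6 CPM against 11.7 to 12.4 CPM in the other 3 (gap 0.869 of the range). That library had a TMM factor of 0.834, the lowest of its group, and 13.6 TPM of Cirbp against 10.6 to 11.2 TPM in the others. Ybx3 was high in AdC3KO library 3 at 4 °C, at 225 CPM against 198 to 199.9 CPM (gap 0.916 of the range). That library had the lowest TMM factor of all, 0.822, and 483 CPM of summed skeletal muscle markers, and its 139 TPM of Ybx3 lay within the 136 to 147 TPM of the other 3. The part of the scaling and of the muscle transcripts in these values was not tested.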

How the results depend on the processing

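Cirbp, Rbm3 and Ybx3 kept direction and call for cold in both genotypes under each alternative run, and no alternative called any of the 5 genes between the genotypes or for the interaction. Ybx1 was called lower in the cold with upper-quartile scaling (−0.24 in AdC3KO, −0.33 in WT) and with unscaled library sizes (−0.39 and −0.44). The cold call of Csdc2 in AdC3KO was lost with upper-quartile scaling (0.93), unscaled sizes (0.77), no low-count filter (1.07), the replicate block (1.12), without libraries with muscle transcripts (1.38) and without the 3 libraries high in interferon genes (1.21). Leaving out 1 library gave Csdc2 0.92 to 1.55, with adjusted p up to 0.105; the filter at 5 CPM removed it. Rtn3 reversed with unscaled sizes (−0.32 in AdC3KO, −0.22 in WT).

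Over all genes, the 8 calls between genotypes at 4 °C became 22 with DESeq2, 5 at a filter of 5 CPM in 3 libraries, 5 with only the groups compared and 3 without muscle libraries, and were 7 to 9 with 1 library left out. The 7 calls at 30 °C became 4 at the 5 CPM filter, 2 without muscle libraries and 4 to 7 with 1 library left out, being 4 without WT library 1 or 3. The cold calls in AdC3KO went to 6589 without muscle libraries. Calls for cold were 49.1% higher in AdC3KO and 49.9% in WT with TMM, 36.4% and 36.2% with upper-quartile scaling, and 28.8% and 30.6% unscaled. The cause of the lost and added calls was not tested. The unscaled sizes and the interferon exclusion were chosen after seeing the data. Shared replicate numbers did not pair the libraries: same-numbered libraries correlated at −0.39 to 0.08 in 13 pairs. The block ended the call of Csdc2 (1.12, adjusted p = 0.0519) and of no other of the 5 genes. Depth limits Csdc2, at 4 to 19 counts.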
